A study of Mus musculus with 3 samples.

Results

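The regions described here are Med12 peaks inside protein-coding genes of distal forelimb cells of the mouse embryo at which no RNAP2 peak was listed. They were chosen by measured values, namely the positions of the peaks in the deposited lists. A Med12 peak was taken when it overlapped no RNAP2 peak, lay more than 1 kb from every annotated transcript start, and overlapped the span of a protein-coding gene. Of 10634 Med12 peaks, 2286 met this rule, a share of 21.5% (95% Wilson interval 20.7 to 22.3%). The other Med12 peaks fell into 1259 intragenic peaks away from starts that overlapped RNAP2, 3493 intergenic peaks without RNAP2, 1529 intergenic peaks with RNAP2, 1751 promoter peaks with RNAP2 and 316 promoter peaks without it.

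The study mapped RNAP2 and Med12 by ChIP-seq in distal forelimbs dissected at E12.5, to locate limb enhancers. The design text of the series gives E11.5, and the stage of the sample labels is used here. There were 3 libraries, with 1 for RNAP2, 1 for Med12 and 1 for input, all from cells dissociated with collagenase and fixed with formaldehyde. The labels give no strain, genotype or sex and no number of embryos, and the cells form a mixture of limb mesenchyme, ectoderm, vessels, nerves and muscle precursors. The share of cells in which a site is bound and the strength of binding per cell therefore cannot be told apart. Each antibody had 1 library, so none of the values has a replicate error, the intervals cover counting error only, and no test was made between libraries. No peak list of the input was analysed, and the lists carry no read counts, which leaves the depth behind a peak unknown. The gene lists used here were chosen with earlier results of these data known, so they are no independent check of the tissue. Of 75 limb patterning transcription factor genes, 60 had an RNAP2 peak within 1 kb of a start, against 42.2% of all 22380 protein-coding genes. The same was found for 9 of 24 muscle genes, 8 of 26 endothelial and blood genes, 4 of 19 ectoderm genes and 4 of 14 nerve and Schwann cell genes.

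Mediator is a large protein complex that connects transcription factors bound at enhancers with RNA polymerase II at promoters. Med12 belongs to its kinase module, a part that binds the core of the complex reversibly and can keep it from engaging the polymerase. Enhancers often lie in introns, of the gene they act on or of a neighbour, and many active enhancers also recruit RNAP2 and are transcribed. The limb bud at this stage is laying out the digits under the control of Hox genes, Sonic hedgehog from the posterior margin, FGFs from the apical ridge, and BMP and Wnt signals.

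The central 300 bases of 5 of these peaks are given below in mm9, on the forward strand. Tle3 holds the peak with the highest Med12 score. The others are the highest-scoring peaks in genes of the limb transcription factor, Hedgehog, Wnt and cartilage lists. Capitals mark matches, on either strand, to the 17 short motifs searched, and matches may overlap.
Tle3, chr9:61252958-61253257: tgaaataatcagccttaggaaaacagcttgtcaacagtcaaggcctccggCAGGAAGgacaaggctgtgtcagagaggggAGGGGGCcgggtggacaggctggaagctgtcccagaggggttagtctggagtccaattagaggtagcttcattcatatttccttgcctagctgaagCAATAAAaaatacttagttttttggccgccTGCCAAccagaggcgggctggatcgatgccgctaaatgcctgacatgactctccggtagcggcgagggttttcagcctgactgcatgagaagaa
Mecom, chr3:30134170-30134469: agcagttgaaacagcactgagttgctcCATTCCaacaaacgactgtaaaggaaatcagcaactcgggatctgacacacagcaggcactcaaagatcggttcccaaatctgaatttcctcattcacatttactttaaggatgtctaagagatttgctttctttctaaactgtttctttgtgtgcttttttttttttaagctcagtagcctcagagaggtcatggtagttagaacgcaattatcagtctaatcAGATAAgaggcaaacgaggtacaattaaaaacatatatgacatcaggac
Hhip, chr8:82492553-82492852: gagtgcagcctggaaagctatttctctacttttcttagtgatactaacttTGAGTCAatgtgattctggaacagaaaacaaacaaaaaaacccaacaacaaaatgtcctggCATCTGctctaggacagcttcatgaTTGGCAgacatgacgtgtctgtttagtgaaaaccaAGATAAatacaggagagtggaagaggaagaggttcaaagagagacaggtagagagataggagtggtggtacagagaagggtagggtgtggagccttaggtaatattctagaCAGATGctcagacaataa
Tcf7l1, chr6:72627393-72627692: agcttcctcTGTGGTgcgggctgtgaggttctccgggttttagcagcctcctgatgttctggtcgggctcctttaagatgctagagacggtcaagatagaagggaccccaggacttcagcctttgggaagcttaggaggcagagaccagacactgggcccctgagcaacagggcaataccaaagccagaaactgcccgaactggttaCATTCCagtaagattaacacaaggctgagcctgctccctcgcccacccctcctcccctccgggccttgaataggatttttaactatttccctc
Sox6, chr7:122760929-122761228: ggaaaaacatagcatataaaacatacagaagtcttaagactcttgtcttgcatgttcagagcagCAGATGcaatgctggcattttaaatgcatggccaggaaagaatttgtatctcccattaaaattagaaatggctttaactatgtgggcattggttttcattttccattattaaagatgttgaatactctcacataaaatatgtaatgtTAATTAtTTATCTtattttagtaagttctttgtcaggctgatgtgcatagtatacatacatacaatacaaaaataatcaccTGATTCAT

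The windows differ in composition. GC content was 52.3% in Tle3 and 54.7% in Tcf7l1, but 31% in Sox6 and 38.7% in Mecom. The Sox6 window holds matches to 5 of the motifs, among them AGATAA of Gata factors, and its last bases match both TGATNNAT of Pbx with Hox and TGANTCA of AP-1. The Hhip window holds 4 of the motifs, with CATCTG, an E-box bound by Twist and Hand proteins, found at 2 positions.

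Most of the Med12 peaks without RNAP2 were weak. The score of the peak caller is the negative log10 of a p-value multiplied by 10, and the lowest in the list is 40. The median score was 49.25 (95% interval 48.73 to 50.1), the highest was 269.92, and 1103 peaks, or 48.3% (46.2 to 50.3%), reached 50, a score that stands for a p-value of 1e-05. Intragenic Med12 peaks with RNAP2 had a median score of 82.55 (78.5 to 87.0) and reached 1325.59. Intergenic Med12 peaks without RNAP2 had a median of 50.54 (49.9 to 51.0). A score of at least 100 was found at 80 peaks without RNAP2, or 3.50% (2.82 to 4.33%), against 18.5% of all Med12 peaks and 38.9% (36.3 to 41.6%) of intragenic peaks with RNAP2. The intragenic peaks without RNAP2 were also narrower, with a median width of 883 bp (869 to 895) against 1091 bp (1074 to 1110) with RNAP2.

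The share of intragenic distal Med12 peaks that lacked RNAP2 went down as the Med12 score went up. It was 87.4% (85.0 to 89.5%) of 812 peaks with a score of 40 to 45 and 75.5% (72.2 to 78.5%) of 713 peaks with a score of 50 to 60. Of 259 peaks scoring 80 to 100 it was 38.6%, and of 289 peaks scoring 150 or more it was 5.19% (3.17 to 8.39%), or 15 peaks. Since weaker RNAP2 binding at these sites would not appear in a list that begins at a score of 40, absence from the list does not mean that no polymerase was bound.

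**Figure D1:**
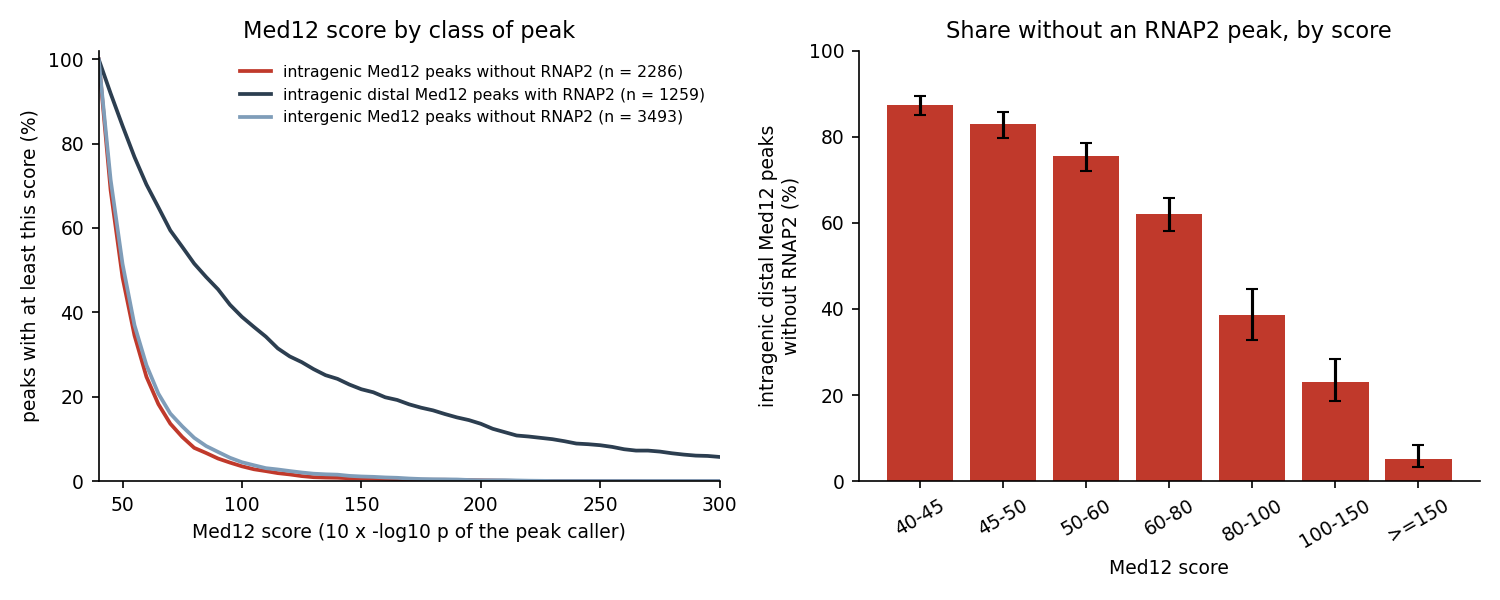
Left, the share of peaks (%) that reach a given Med12 score in 3 classes of Med12 peak, and right, the share (%) of intragenic distal Med12 peaks that lack RNAP2 in 7 classes of Med12 score, with 95% Wilson intervals as bars. Peaks without RNAP2 in and outside genes follow nearly the same curve, and the share without RNAP2 goes from 87.4% in the lowest class to 5.19% in the highest.

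At the limits of the rule, the selected and the excluded peaks lay close together. The members with the smallest gaps to an RNAP2 peak were in Slit2 at 18 bp, Ror2 at 25 bp and Tmem200a at 28 bp. The Med12 peaks left out with the smallest overlaps were in Pde4b with 23 bp, Zmiz1 with 61 bp and Wsb1 with 76 bp. Next to starts, the nearest members were in Arhgef1 at 1004 bp, Cdon at 1013 bp and A930011G23Rik at 1028 bp. Peaks in AA386476 at 985 bp, Msrb3 at 972 bp and Myh13 at 971 bp from a start were left out. All 12 had Med12 scores from 41.57 to 56.99.

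The nearest RNAP2 peak lay at a median distance of 37177 bp (95% interval 33907 to 40651) from a Med12 peak without RNAP2 in a gene. An RNAP2 peak was within 1 kb of 85 peaks, or 3.72% (3.02 to 4.57%), within 10 kb of 522, or 22.8%, and within 100 kb of 1701, or 74.4%. Intergenic Med12 peaks without RNAP2 were farther from RNAP2, at a median of 79680 bp (74537 to 85435), with 12.9% (11.8 to 14.0%) within 10 kb. For 622 of the intragenic peaks, or 27.2% (25.4 to 29.1%), the nearest RNAP2 peak was at a start of the host gene. For 407 it was at a start of another gene, and for 1257, or 55.0%, it was at no annotated start. The host had RNAP2 at a start for 1351 peaks and none there for 935. The median Med12 scores of these peaks were 48.96 (48.27 to 49.82) and 50.03 (48.84 to 50.92), with intervals that overlap.

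Other Med12 peaks were also distant. The median distance to the nearest of them was 61672.5 bp, against 26803 bp for intragenic peaks with RNAP2 and 72048 bp for intergenic peaks without it. Another Med12 peak lay within 10 kb of 13.8% (12.47 to 15.3%) of the intragenic peaks without RNAP2 and of 30.02% (27.6 to 32.6%) of those with RNAP2.

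**Figure D2:**
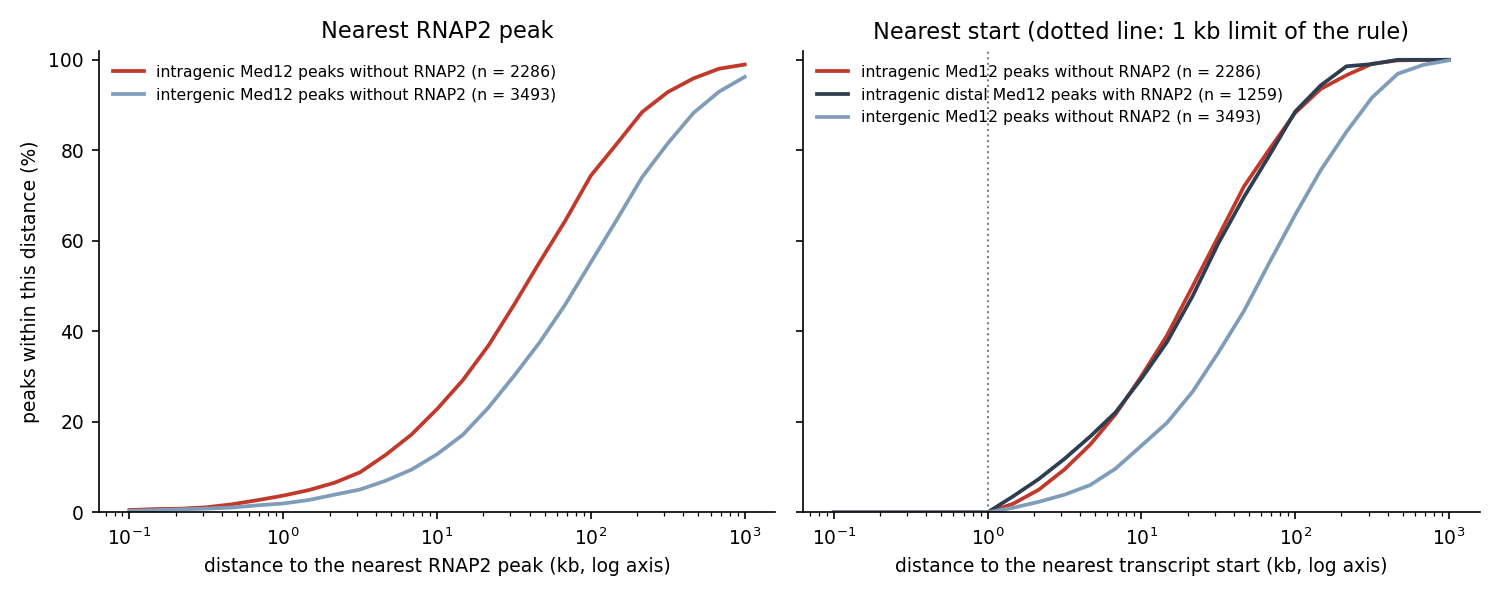
Cumulative share of peaks (%) by the distance in kb, on a log axis, to the nearest RNAP2 peak (left) and to the nearest annotated transcript start (right), for 3 classes of Med12 peak. Intragenic peaks without RNAP2 lie closer to RNAP2 than intergenic ones, with 74.4% and 55.3% within 100 kb, and their distances to starts follow those of intragenic peaks with RNAP2.

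Within their genes the peaks were spread much as the sequence itself is. The nearest start of any transcript was a median of 21570 bp away (20040 to 23171), against 23056 bp (21225 to 25076) for intragenic peaks with RNAP2. It belonged to the host gene for 1501 peaks, or 65.7%, to another coding gene for 193 and to a gene that is not protein-coding for 592. The peak centre lay in an exon for 5.21% (4.36 to 6.198%) of 2267 peaks. Exons hold 6.11% of the bases of coding genes away from starts and RNAP2 peaks. The peak centre lay in the first intron of the longest transcript for 22.9% (21.3 to 24.7%), where first introns hold 24.2% of those bases. In all, 1971 peaks, or 86.2% (84.7 to 87.6%), overlapped no exon, against 86.8% (84.8 to 88.6%) of those with RNAP2. When each gene was divided into 4 equal segments from start to end, these held 24.0, 27.1, 25.8 and 23.2% of the peaks in that order, whereas intragenic peaks with RNAP2 went from 20.9% (18.8 to 23.2%) in the first segment to 28.3% (25.9 to 30.9%) in the last. Genes were only slightly richer in such peaks than other sequence. There were 2.50 peaks per Mb (exact Poisson interval 2.40 to 2.61) in coding gene spans away from starts and RNAP2 peaks, and 2.16 (2.09 to 2.23) in intergenic sequence. Assembly gaps and sequence where reads cannot be placed were not taken out of either length, and their part in the difference was not tested.

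The peaks lay in 1578 of 22380 protein-coding genes, or 7.05%. Of these hosts, 1162 held 1 peak, 416 held 2 or more and 44 held 5 or more. Hosts were long, with a median length of 130.3 kb against 15.4 kb for all coding genes. The share of genes that were hosts was 1.11% of genes under 30 kb, 9.39% of those from 30 to 100 kb, 31.6% of those from 100 to 300 kb and 67.0% of those of 300 kb or more.

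Over all lengths, host genes had RNAP2 at a start more often than coding genes in general. In the longest genes the intervals of hosts and of all genes overlapped, but all genes include the hosts. An RNAP2 peak lay within 1 kb of a start for 921 of 1578 hosts, or 58.4% (55.9 to 60.8%), against 42.2% of all coding genes and 68.2% of the hosts of intragenic peaks with RNAP2. In genes of 100 to 300 kb the share was 61.0% for hosts of Med12 peaks without RNAP2, 53.7% for all genes and 67.3% (62.02 to 72.1%) for hosts of peaks with RNAP2. In genes under 30 kb these shares were 51.5%, 36.3% and 81.6%, and in genes of 30 to 100 kb they were 63.9%, 55.6% and 71.0%. In genes of 300 kb or more they were 50% (44.8 to 55.2%) for hosts and 43.2% (39.02 to 47.4%) for all genes, with intervals that overlap. Of the 528 genes of this length, 354 are hosts. Those that host no such peak had RNAP2 at a start in 29.3% (23.1 to 36.5%), an interval apart from that of the hosts. A Med12 peak lay at a start of 14.96% of the hosts and of 9.37% of all coding genes. Of the hosts, 342 also held a distal site with both proteins and 1236 did not, and 66.7% (61.5 to 71.5%) and 56.1% (53.3 to 58.8%) of them had RNAP2 at a start. In genes of 300 kb or more, hosts without such a site had RNAP2 at a start in 40.8% (34.3 to 47.6%), and hosts with one in 62.8% (54.8 to 70.2%).

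Peak densities were higher where RNAP2 lay at a start, but for Med12 peaks without RNAP2 the intervals overlapped in genes under 30 kb. They are given per Mb of gene away from starts and RNAP2 peaks, also for the sites with both proteins, which lie on RNAP2 peaks. In genes of 300 kb or more, there were 3.76 Med12 peaks without RNAP2 per Mb where RNAP2 lay at a start and 2.36 where it did not. For sites with both proteins the densities were 2.50 and 0.816 per Mb. In genes under 30 kb, Med12 peaks without RNAP2 had densities of 1.68 (1.34 to 2.07) and 1.31 (1.04 to 1.63), whereas sites with both had 1.58 (1.25 to 1.96) and 0.292 (0.173 to 0.462). Since overlap with RNAP2 divides these peak classes and RNAP2 also divides the genes, the densities are a description and were not compared between the classes.

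**Figure D3:**
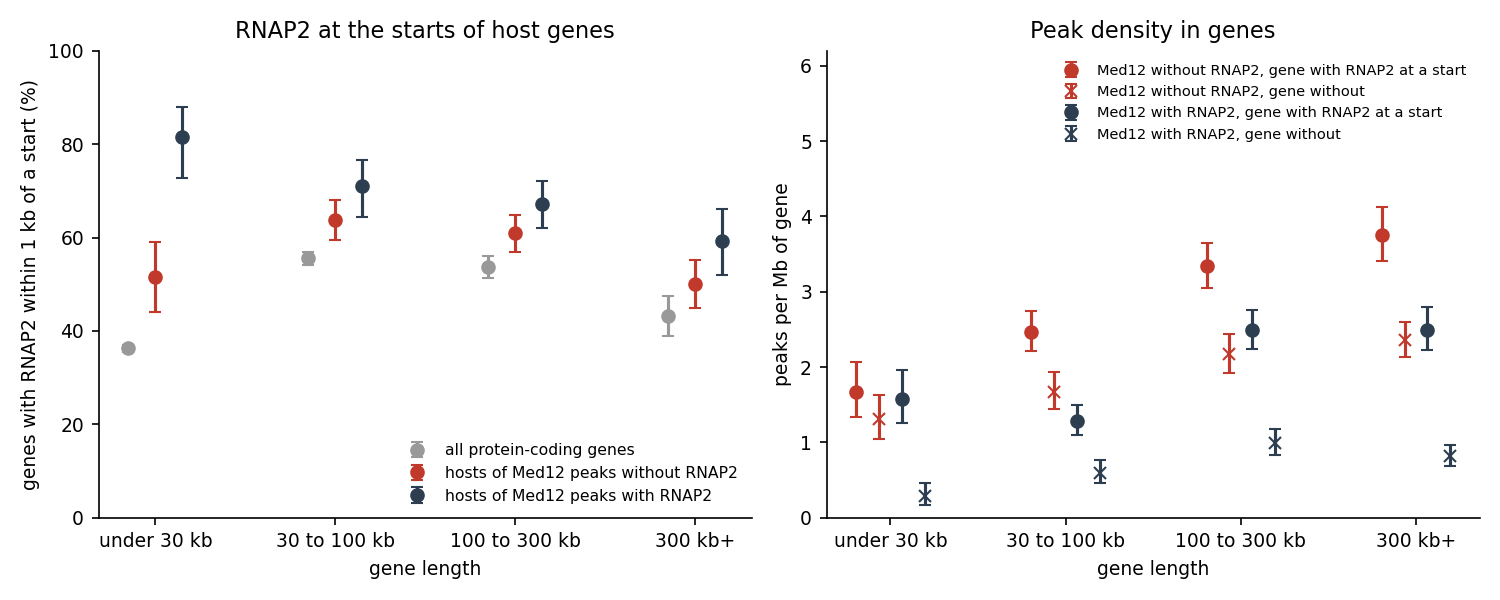
Left, the share of genes (%) with an RNAP2 peak within 1 kb of a start in 4 classes of gene length, with 95% Wilson intervals. The genes are all protein-coding genes and the hosts of Med12 peaks without and with RNAP2. Right, the number of Med12 peaks per Mb of gene away from starts and RNAP2 peaks, with exact Poisson intervals, split by RNAP2 at a start. Hosts of Med12 peaks without RNAP2 lie between all genes and hosts of peaks with RNAP2 in each class. At 300 kb or more their interval overlaps that of all genes, a set that includes the hosts. In genes of 300 kb or more the densities are 3.76 and 2.36 per Mb for peaks without RNAP2 and 2.50 and 0.816 for peaks with it.

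The genes with the most peaks were among the longest. Macrod2, which encodes an enzyme that removes ADP-ribose, Ptprd, a receptor tyrosine phosphatase, Exoc6b, a subunit of the exocyst, and Pde4d, a phosphodiesterase of cyclic AMP, held 9 peaks each. Erc2, a scaffold protein of synapses, Zbtb20, a zinc finger repressor, and Pard3b, a polarity protein, held 8 each. Odz2 and Odz4, which encode teneurins, Cntnap2 of the neurexin family, the synaptic scaffold gene Dlg2 and Immp2l, a mitochondrial peptidase, held 7 each. Exoc6b and Odz4, with 451 kb and 740 kb, were the shortest of the 12, and Ptprd, with 2271 kb, was the longest. RNAP2 lay at a start of 7 of the 12.

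Zbtb20 had the fewest RNAP2 peaks of the 12. Its 8 Med12 peaks had scores from 40.22 to 72.93 and lay between 37077 bp and 478645 bp from the nearest RNAP2 peak. The gene of 767 kb holds 1 RNAP2 peak in all, at a start, with a score of 479.42, and no site with both proteins. Immp2l and Odz2 also held 7 peaks each without a site of both proteins, and had 3 RNAP2 peaks each. Odz4 was unlike them, with 24 RNAP2 peaks and 6 sites with both proteins beside its 7 Med12 peaks without RNAP2.

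**Figure D4:**
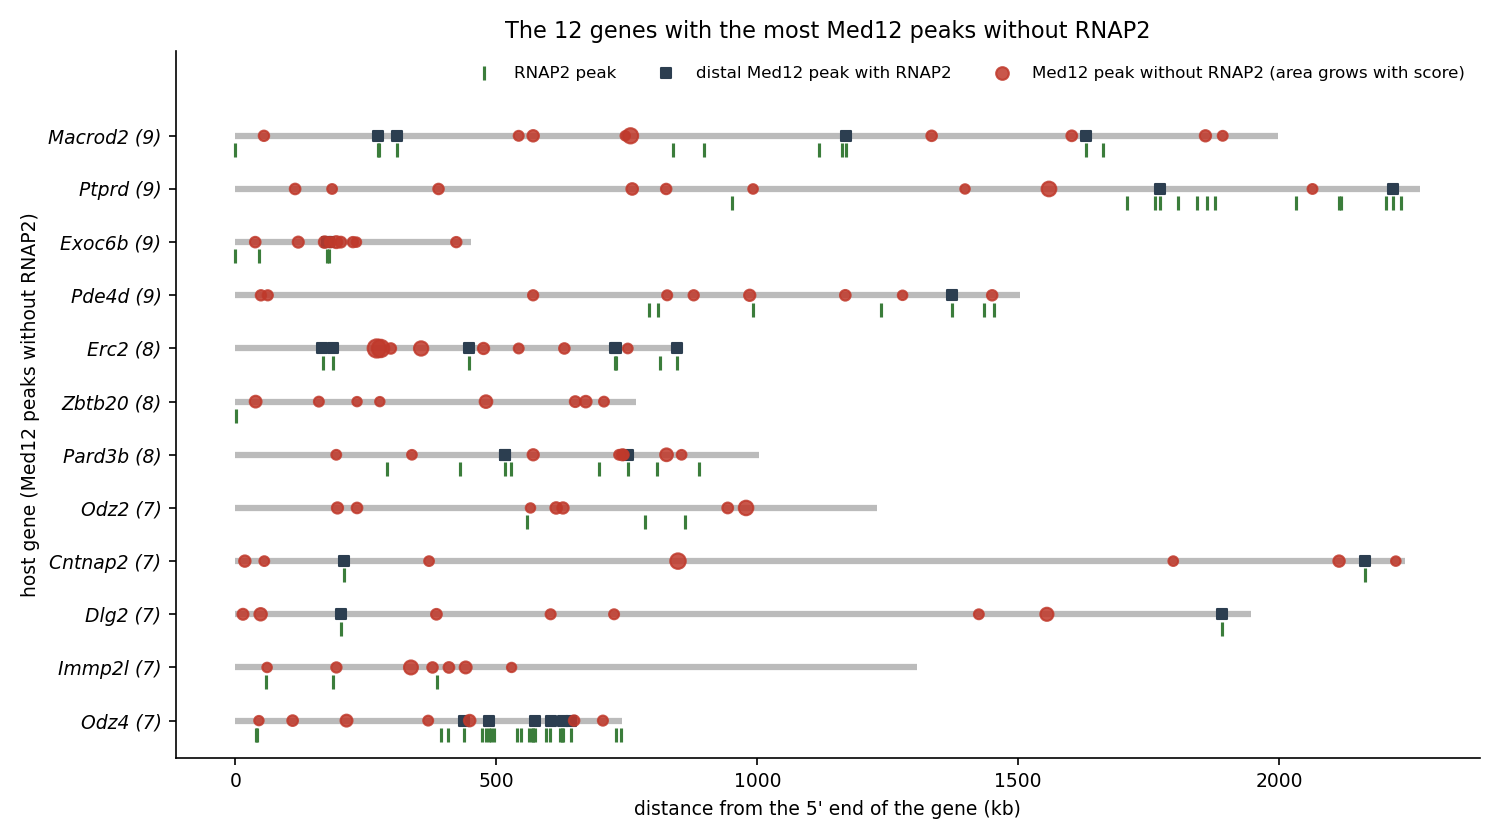
Positions of Med12 peaks without RNAP2 (red circles), distal Med12 peaks with RNAP2 (dark squares) and RNAP2 peaks (green ticks) along the 12 genes with the most Med12 peaks without RNAP2, in kb from the 5′ end of each gene, with the number of red circles beside the name. Peaks are scattered over most of the genes but crowd together in Exoc6b, and Zbtb20 has 1 RNAP2 peak in 767 kb.

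Density picked out other genes, which were chosen after their values were seen. Among hosts with at least 5 peaks, Mtx2, a gene of 52.6 kb for a protein of the mitochondrial outer membrane, was far denser than the rest, with 11.4 peaks per 100 kb against 1.995 in Exoc6b, which came next. Of its 6 peaks, 5 stand between 31.8 and 38.3 kb from the start of the gene, with gaps of 291, 335 and 647 bp between some of them, and the other lies at 6.45 kb. Their scores ran from 42.28 to 58.85, and the nearest RNAP2 peak was 2602 to 9102 bp away. Mtx2 has an RNAP2 peak with a score of 231.06 at its start and no site with both proteins. Its span begins 128 kb from the start of Hoxd9 and 157 kb from that of Hoxd13, which pattern the digits, and RNAP2 covers the starts of Hoxd9 to Hoxd13.

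Exoc6b lies next to Cyp26b1, which encodes the enzyme that degrades retinoic acid in the distal limb. The end of Exoc6b is 24.7 kb from the start of Cyp26b1, which carries RNAP2. Of its 9 peaks, 7 lie between 120.5 and 232 kb from the 5′ end of the gene, and their scores range from 41.54 to 65.95 over the 9. The nearest to the start of Cyp26b1 is 52.0 kb away. Erc2 ends 26.2 kb from the start of Wnt5a, a Wnt ligand needed for limb outgrowth, which has an RNAP2 peak with a score of 827.83. The 8 peaks in Erc2 lie from 130.005 to 610 kb from that start. The highest of them score 153.11, 140.59 and 94.28 and lie 271, 278 and 356 kb from the 5′ end of the gene, in introns 5, 6 and 8. Erc2 itself has no RNAP2 at a start, while it holds 6 sites with both proteins. Gene 2010111I01Rik, which encodes an aminopeptidase, holds 5 peaks with scores from 40.99 to 192.62, beside 7 sites with both proteins and 18 RNAP2 peaks, and its span is 247 kb from the start of Ptch1, the Hedgehog receptor. Cpa6, a carboxypeptidase gene of 395 kb, holds 5 peaks with scores from 40.33 to 56.05 and 0 RNAP2 peaks.

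The highest score, 269.92, was found in Tle3, a corepressor of the Groucho family. The peak of 1442 bp reaches an exon, has a start of the same gene at 2119 bp, and has an RNAP2 peak with a score of 86.53 at 1099 bp. It ranked 334 in the whole Med12 list. Next came peaks in Plxdc2, a transmembrane protein gene, with a score of 214.63 in intron 9 and 93313 bp from RNAP2, and in Vwa2, an extracellular matrix gene, with 208.93 and 79919 bp. The peak in the polarity gene Pard3 scored 202.2 in intron 1 at 5070 bp from RNAP2, and that in Cachd1 scored 199.95 in intron 1 at 3611 bp. The remaining peaks among the 10 highest were in 2010111I01Rik, Gfod2, Slc7a14, Disc1 and Epb4.1l2, with scores from 165.85 to 192.62. At 2 of these the sequence is repeated in the genome. All 32-base words of the Disc1 peak, and 68.4% of those in the centre of the Gfod2 peak, occur more than once in mm9, so that reads could be placed there with less certainty. Among all 2286 peaks, 33, or 1.44% (1.03 to 2.02%), had at least 50% of such words, against 3.89% (3.30 to 4.59%) of intergenic peaks without RNAP2.

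Genes of limb patterning were examined by list. Of 75 limb transcription factor genes, 14 were hosts, with 28 peaks. This is 18.7% (11.5 to 28.9%), against 7.05% of all coding genes. By length, 1.11% of all coding genes under 30 kb, 9.39% of those of 30 to 100 kb and 31.6% of those of 100 to 300 kb were hosts. The median length was 14.1 kb in the list and 124 kb in its hosts. RNAP2 lay at a start of 13 of the 14. A site with both proteins was held by 24 of the 75 genes, and by 817 of all 22380 coding genes. Mecom, a zinc finger regulator, held 5 peaks with scores of 53.25, 46.88, 104, 55.32 and 40.32. The strongest lies in intron 1, 435 bp from an RNAP2 peak with a score of 54.45, and the gene has 51 RNAP2 peaks and 12 sites with both proteins. Bnc2 held 4 peaks, with scores from 43.2 to 60.65. Foxp2, a forkhead repressor, held 3, with scores of 44.36, 99.25 and 69.8, and no site with both proteins.

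TALE homeobox genes, whose products bind DNA together with Hox proteins, were among these hosts. Pbx3 held 3 peaks, with scores of 66.09, 62.6 and 46.06, all in intron 2, between 22871 and 37440 bp from RNAP2. Meis2, a gene of the proximal limb, held 2 in intron 7, with scores of 55.74 and 75.42, at 59011 and 43923 bp from RNAP2. Tbx15 held 2, with scores of 67.93 and 45.86. Of the short genes in the list, Tbx2, at 9.40 kb, held a peak of 40.97 at 79 bp from an RNAP2 peak, and Lmx1b, which specifies dorsal fate, a peak of 48.81 at 7689 bp.

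Among signalling pathways, 4 of 16 Hedgehog genes were hosts, or 25% (10.2 to 49.5%), against 7.05% of all coding genes and 9.39% of those of 30 to 100 kb, the class of the list's median length of 69.0 kb. The median length of the 4 hosts was 176 kb, and 31.6% of all coding genes of 100 to 300 kb were hosts. All 4 had RNAP2 at a start, as had 12 of the 16. Hhip, a membrane antagonist of Hedgehog, held 2 peaks, with a score of 57.35 near its end, at 12860 bp from RNAP2, and of 53.63 in intron 1, 2110 bp from the RNAP2 peak of its start, which scored 59.29. Hhat, which attaches palmitate to Hedgehog, held 2, with scores of 41.17 and 55.05, and all words in the centre of the second are repeated. Gpc3 and Cdon, cell surface proteins that bind Hedgehog or its partners, held 1 each, with scores of 43.02 and 41.77.

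Of 38 BMP and TGF-beta genes, 6 were hosts, or 15.8% (7.44 to 30.4%), an interval that includes the 9.39% of coding genes of 30 to 100 kb, where the list's median of 53.4 kb falls. Bmpr1b, a BMP receptor of the cartilage condensations, held 3 peaks in intron 1, with scores of 48.07, 57.99 and 159.12. The strongest, 2111 bp wide, lies 21042 bp from RNAP2 and 68265 bp from a start. The gene also holds 2 sites with both proteins, and RNAP2 with a score of 823.32 lies at a start. Ltbp1, which stores TGF-beta in the matrix, held 2, with scores of 54.85 and 45.28, and the ligand gene Bmp5 held 1, with a score of 40.14.

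Of 22 FGF pathway genes, 3 were hosts by their annotated spans, or 13.6% (4.75 to 33.3%), an interval that includes the 7.05% of all coding genes. Fgf18, a ligand gene of 29.97 kb without any RNAP2 peak, held 2 peaks with scores of 44.6 and 50.86, and Etv5, a target of FGF signals, held 1 with a score of 43.78. Fgfr2 counts 6, but 1 annotated transcript with an intron of over 1 Mb stretches its span to 3009 kb. All 6 lie outside the span of its other 28 transcripts, and none of them is read here as a site of Fgfr2.

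Of 52 Wnt pathway genes, 8 were hosts with 1 peak each, or 15.4% (8.01 to 27.5%), an interval that includes the 9.39% of coding genes of 30 to 100 kb. The transcription factors Tcf7l1 and Lef1 had scores of 83.27 and 57.17, and the Tcf7l1 peak lies 371 bp from an RNAP2 peak with a score of 70.59. At the centre of the Lef1 peak, 40.5% of the words are repeated. The receptor Fzd3 had 58.84 and the coreceptor Ror2 47.04. The secreted antagonist Dkk2 had 51.45 and the agonist Rspo2 40.32, and these genes, like Fzd3, have no RNAP2 peak in their span. Of 21 Notch genes, 2 were hosts, or 9.52% (2.65 to 28.9%), an interval that includes the 7.05% of all coding genes. Maml3, a coactivator, had scores of 89.44 and 46.95, and its relative Maml2 had 45.51. None of 15 retinoic acid genes was a host (95% Wilson interval up to 20.4%), and this interval also includes the 7.05% of all coding genes.

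Of 30 cartilage and bone genes, 6 were hosts, or 20% (9.51 to 37.3%), against 7.05% of all coding genes. The median length was 28.2 kb in the list and 213 kb in its hosts, and 31.6% of all coding genes of 100 to 300 kb were hosts. RNAP2 lay at a start of 5 of these hosts and of 18 of the 30 genes, against 58.4% of all hosts. Sox6, which with Sox5 drives chondrocyte differentiation, held 3 peaks, with scores of 99.98, 44.9 and 46.44. The strongest ends 90 bp from an RNAP2 peak with a score of 123.79, and the others are 12707 and 38264 bp from RNAP2. Sox5 held 1, with a score of 55.55, at 370 bp from RNAP2. Trps1 held 1 with a score of 48.89, Barx2 51.06, Col11a1 44.52 and Col9a1 40.05. Trps1 also holds 8 sites with both proteins, and Sox6 holds 5.

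Cell surface and guidance genes were hosts more often, and are long. Of 28 guidance receptors and ligands, 19 held 35 peaks, or 67.9% (49.3 to 82.1%), where 67.0% of all coding genes of 300 kb or more and 31.6% of those of 100 to 300 kb were hosts. The median length of the list was 219 kb. Epha3, a receptor for ephrins, held 4 peaks, with scores of 64.58, 64.81, 40.11 and 47.21. Slit2, a repellent for axons, held 4, from 41.09 to 56.99, and Efna5, an ephrin, held 3, from 46.36 to 80.35. Of 30 matrix and adhesion genes, 11, or 36.7% (21.9 to 54.5%), were hosts with 17 peaks, and the median length of that list was 114 kb. The protocadherin gene Pcdh7, with scores of 50.61, 40.28 and 77.42, and the cadherin gene Cdh2, with scores from 41.13 to 67.53, held 3 each.

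Genes of other cell types in the limb were also hosts. Of 24 muscle genes 5, or 20.8% (9.24 to 40.5%), held 7 peaks, against 7.05% of all coding genes, and 1 of these hosts, Mef2a, had RNAP2 at a start, as had 9 of the 24, and a peak of 114.46 in intron 2. The others were Mef2c, Dmd, Tnnt3 and Met. The median length was 17.1 kb in the muscle list and 142 kb in its hosts, and 31.6% of all coding genes of 100 to 300 kb were hosts. Of 26 endothelial and blood genes 4, or 15.4% (6.15 to 33.5%), were hosts, with scores of 78.4 and 45.81 in Ptprc of leukocytes, which has no RNAP2 at a start, and 79.02 in Ets1, which has. Of 19 ectoderm genes 2, or 10.5% (2.94 to 31.4%), were hosts, Trp63 with 53.39 and Grhl2 with 51.11, and neither has an RNAP2 peak in its span. None of 14 nerve and Schwann cell genes was a host (95% Wilson interval up to 21.5%), and this interval includes the 7.05% of all coding genes. Among 33 Mediator subunit genes 1 was a host, or 3.03% (0.537 to 15.3%), an interval that includes the 7.05% of all coding genes. This host was Med12l, the paralogue of Med12, which held 1 peak with a score of 68.96. What the other cell types contribute to the peaks was not tested.

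Beside the HoxA cluster, the genes on its telomeric side held 6 such peaks. Hibadh held 2 with scores of 49.38 and 81.99, and the second, in intron 1, lies 4590 bp from the RNAP2 peak at its start. Tax1bp1 held 2 with scores of 41.19 and 43.61. Jazf1 held 2 with scores of 78.31 and 43.44, at 1216 and 1893 bp from RNAP2.

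In base composition the peaks were closer to intergenic peaks without RNAP2 than to intragenic peaks with it. The median GC content of the central 300 bases was 40.3% (40 to 40.7%), against 42.7% (42.3 to 43.0%) with RNAP2 and 39.3% (39 to 39.7%) in intergenic peaks without it. No CpG was present in 17.2% (15.7 to 18.8%) of the windows, against 7.55% (6.21 to 9.14%) with RNAP2 and 23.2% (21.8 to 24.6%) in intergenic peaks without it.

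Matches to AGATAA, the motif of Gata factors, were found in 19.7% (18.1 to 21.4%) of the windows of intragenic peaks without RNAP2. The share was 10.2% (8.62 to 11.96%) with RNAP2, 19.0% (17.8 to 20.4%) in intergenic peaks without RNAP2, 14.5% in all Med12 peaks and 9.20% in all RNAP2 peaks. The shares also differed in windows of like composition, except that the intervals overlapped in the windows poorest in GC. In windows with a GC content of 38 to 44%, the motif was found in 21.2% (18.5 to 24.2%) without RNAP2 and in 10.1% (7.59 to 13.2%) with it. In windows of 44% or more, the shares were 10.3% (8.19 to 12.8%) and 5.83% (4.16 to 8.11%), and in those under 38% they were 26.0% (23.1 to 29.2%) and 19.0% (14.8 to 24.1%). Among peaks with a score under 60 the shares were 20.8% (19.0 to 22.8%) and 9.63% (7.03 to 13.0%), and at 60 or more they were 16.3% (13.5 to 19.6%) and 10.4% (8.55 to 12.6%). Windows with 3 or more matches were rare, with 3 of 2286.

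The motif TGATNNAT of Pbx with Hox was found in 17.5% (16.0 to 19.1%) of the windows, against 11.8% (10.1 to 13.7%) with RNAP2 and 14.4% in all Med12 peaks. The Sox motif ACAATG was found in 19.5% (17.9 to 21.2%) against 14.4% (12.55 to 16.4%) with RNAP2 and 15.7% in all Med12 peaks. With a GC content of 38 to 44% these shares were 18.2% (15.7 to 21.1%) against 13.5% (10.6 to 17.0%) for the Pbx and Hox motif, and 19.0% (16.4 to 21.8%) against 15.6% (12.46 to 19.3%) for the Sox motif, with intervals that overlap. Among peaks with a score of 60 or more the intervals did not overlap, with 20.4% (17.2 to 23.9%) against 11.0% (9.07 to 13.2%) for the Pbx and Hox motif and 19.3% (16.3 to 22.7%) against 13.6% (11.5 to 16.0%) for the Sox motif. Under a score of 60, where 1721 of the peaks without RNAP2 fall, the intervals overlapped for both motifs. The shares there were 16.5% (14.8 to 18.3%) against 13.6% (10.5 to 17.5%) for the Pbx and Hox motif. For the Sox motif they were 19.6% (17.8 to 21.5%) against 16.3% (12.9 to 20.4%).

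Other motifs were more frequent in peaks with RNAP2, which are also richer in GC. The E-box CATCTG was found in 22.3% (20.6 to 24.0%) without RNAP2 and in 28.1% (25.7 to 30.7%) with it, against 21.8% of all Med12 peaks. The E-box CAGCTG of myogenic factors was found in 14.0% (12.6 to 15.5%) and 19.4% (17.3 to 21.7%), against 14.9% of all. For CATTCC of Tead factors the shares were 15.5% (14.1 to 17.1%) and 20.4% (18.3 to 22.7%), against 17.1% of all, and for AGGGGGC, a core of the Ctcf site, they were 2.58% (2.01 to 3.31%) and 5.96% (4.78 to 7.40%), against 5.13% of all. In each of the 3 classes of GC content the shares of both E-boxes and the Ctcf core were lower without RNAP2, with intervals that overlapped. The Tead motif was not divided by GC content. At a GC content of 38 to 44%, CATCTG was found in 21.7% (19.0 to 24.7%) without RNAP2 and in 27.0% (23.1 to 31.4%) with it, CAGCTG in 13.2% (11.04 to 15.7%) and 17.4% (14.1 to 21.2%), and AGGGGGC in 1.97% (1.22 to 3.18%) and 3.89% (2.44 to 6.14%). Divided by score, the CATCTG intervals overlapped below 60. At 60 or more they did not, with 20% (16.9 to 23.5%) without RNAP2 and 28.5% (25.6 to 31.5%) with it. For CAGCTG and AGGGGGC they overlapped at 60 or more but not below it. Below 60 the shares were 13.2% (11.7 to 14.9%) and 18.7% (15.1 to 23.0%) for CAGCTG. For AGGGGGC they were 2.21% (1.61 to 3.02%) and 4.81% (3.07 to 7.48%). Over all windows the homeodomain motif TAATTA was found in 14.0% without RNAP2 and 15.9% with it, with intervals that overlap. TTGGCA of Nfi factors had shares of 16.0% (14.5 to 17.5%) and 19.4% (17.3 to 21.7%), with intervals that overlap, against 16.1% of all Med12 peaks. GGGCGGG of Sp and Klf factors, frequent at promoters, had 1.09% and 3.18%, against 7.41% of all.

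For the rest of the 17 motifs the intervals without and with RNAP2 overlapped. CAATAAA of posterior Hox proteins was found in 11.2% and 13.6% of windows, against 11.1% of all Med12 peaks, and TGACAG of Meis and Tgif in 18.1% and 17.6%, against 15.9%. For TGANTCA of AP-1 the shares were 9.67% and 7.07%, against 8.00% of all, and for CAGGAAG of Ets factors 8.79% and 7.31%, against 8.99%. TGTGGT of Runx factors was found in 20.1% and 20.7%, against 18.7% of all, and ATCAAAG of Tcf and Lef in 4.90% and 6.35%, against 5.58%. In intergenic peaks without RNAP2, ATCAAAG was found in 7.07% (6.27 to 7.97%), an interval apart from the 4.09 to 5.86% of intragenic peaks without RNAP2. GGGTGGTC of Gli factors, the effectors of Hedgehog, was rare, at 0.481% and 0.794%, against 0.630% of all. A match is a run of letters and does not show that a factor was bound.

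**Figure D5:**
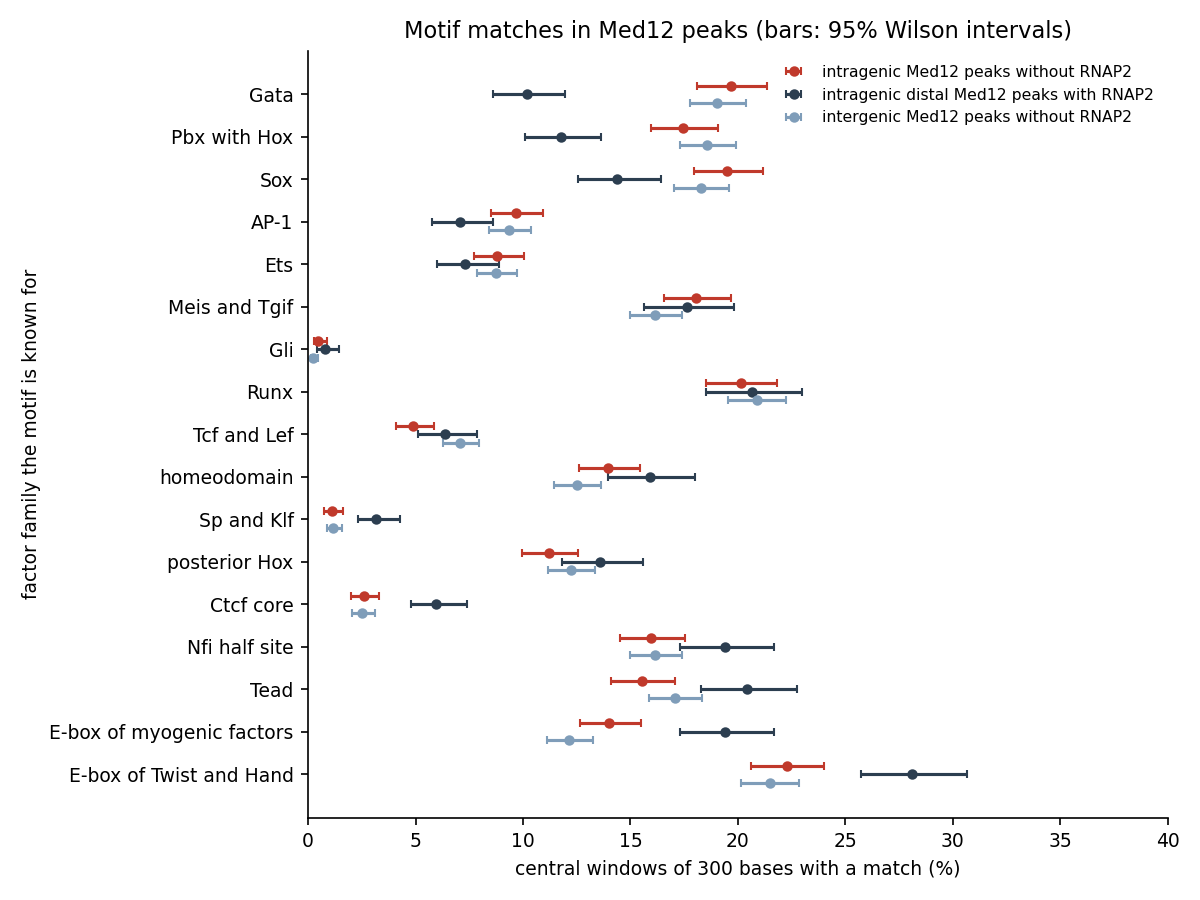
Share of central windows (%) that hold a match to each of 17 short motifs, named by the factor family they are known for, in 3 classes of Med12 peak, with 95% Wilson intervals as bars and ordered by the difference between intragenic peaks without and with RNAP2. The Gata motif stands at the top with 19.7% and 10.2%, and the E-box of Twist and Hand at the bottom with 22.3% and 28.1%. For most motifs, intergenic peaks without RNAP2 lie close to intragenic peaks without it. For the Tcf and Lef motif their intervals are apart, with 7.07% in intergenic and 4.90% in intragenic peaks without RNAP2.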

How the data were processed

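ChIP-seq of RNAP2 and Med12 from distal forelimbs at E12.5 was deposited as 2 peak lists, with 1 library each, and no list of the input library was used here. The authors aligned reads to mm9 using Bowtie, took out duplicate reads, and ran MACS 1.4.1 for the peaks. The deposited score is the one MACS wrote, a negative log10 p-value multiplied by 10, and it depends on library depth and peak width, so scores were compared within the Med12 list alone. Whether the input served as control for peak calling is not given in the sources used here. The lists reach down to a score of 40, a p-value of 0.0001, while the methods of the study set 1e-05.

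Peaks were placed on the GENCODE vM1 annotation of mm9 with Python 3.11.15 and numpy 2.4.6. An overlap needed 1 bp, and the number of Med12 peaks without RNAP2 was the same with bedtools 2.31.1. The rule was tested on simulated peaks. Shares have 95% Wilson intervals from scipy 1.17.1, medians have intervals from order statistics, and densities have exact Poisson intervals. The reference sequence is not soft-masked, so repeats were measured as the share of 32-base words found more than once in the genome, and windows with over 30% of such words were not printed. The sequences of other peaks are not reported here. Windows were matched to 17 motifs on both strands. Figures were drawn with matplotlib 3.10.9.

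The members and the 15 gene lists were chosen with earlier results of these data known. Named are the 12 genes with the most peaks, the hosts of the 10 highest scores, at most 6 genes per list, and peaks next to the limits of the rule. The splits of motif shares by GC content and score, the genes ranked by density the genes Tbx2, Lmx1b and Rspo2 and the genes beside HoxA were chosen after their values were seen.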

Additional observations from a re-analysis of the deposited data

How the results depend on the processing

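No paired analysis was possible because there was 1 library per antibody, so no groups were tested. Under 9 alternatives 63 values were computed again. Of the alternatives, the exclusion of repeated sequence by 32-base words and of transcripts with an intron over 1 Mb were chosen after seeing the data. The planned exclusion by soft-masked bases was not run, since the reference is not soft-masked. Of the values 46 stayed within 1.5 times the reported count or inside the interval given for a share or median, and 17 did not. The results are counts, shares and medians, which have no direction that could change. A score of at least 50 in both lists gave 1166 peaks in 913 hosts, with RNAP2 at a start of 53.8% of these hosts. The medians were 60.65 for the score, 45361 bp to RNAP2 and 23235 bp to a start. A score of at least 100 gave 166 peaks in 152 hosts, with RNAP2 at a start of 50.7% of the hosts and 88.6% of the peaks wholly in introns. The medians were 121.665, 64253.5 bp and 23591 bp. Promoters of 5 kb gave 42630 bp to RNAP2, 28577 bp to a start and 88.4% in introns, and protein-coding starts alone gave 34605 bp to a start. Fewer peaks enter each of these by construction, except with protein-coding starts. The score limits also remove weaker RNAP2 peaks, so Med12 peaks that overlap only those are then counted as lacking RNAP2. Of the 2286 reported peaks, 1103 had a score of at least 50 and 80 a score of at least 100. Overlap of 50%, RNAP2 peaks widened by 1000 bp, assignment by peak centre and the added alternatives left the 7 results within these limits. Depth per peak is unknown, and binding under a score of 40 is not seen.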
